A study of Drosophila melanogaster with 12 samples.

Results

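A set of 915 AGO2 peaks was examined in Kc167, a female cell line derived from Drosophila melanogaster embryos. The peaks were selected by 3 criteria from the 4201 peaks of mock-treated cells: no overlap with an AGO2 peak of LaminB knockdown cells, an overlap of at least 1 bp with an RNA polymerase II (Pol II) domain of mock-treated cells, and a summit in annotated coding sequence. Of the 4201 mock peaks, 3563 were mock-only in the first sense and 638 were retained. The mock-only peaks held 2270 that overlapped Pol II and 1473 with a coding summit, and both properties met in the 915. They are called mock-only coding peaks with Pol II, or member peaks for short, and the gene whose coding sequence held the summit is called the host.

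Chromatin immunoprecipitation and sequencing (ChIP-seq) was done with 2 AGO2 libraries from cells given double-stranded RNA against LaminB, 2 AGO2 libraries from mock-treated cells, which received none, and 2 Pol II libraries (antibody 8WG16) from mock-treated cells, beside 2 knockdown and 4 mock inputs. All cells came from the same line, and Pol II was not measured here after the knockdown. Replicates were pooled before the final call, so each ChIP was represented by 1 list (761 knockdown AGO2 peaks, 4201 mock AGO2 peaks and 5905 Pol II domains), no value below has a replicate error, and the depth is unknown. Absence of these peaks from the knockdown list through weaker binding and through a weaker or shallower ChIP cannot be told apart.

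AGO2 is the Argonaute protein that carries small interfering RNAs in the RNA interference pathway, and part of it is found on chromatin, mostly at active promoters. In Drosophila, Pol II initiates at the start site and commonly pauses a short way downstream before it enters productive elongation, and antibody 8WG16 recognises mainly the form of Pol II found near promoters. LaminB, encoded by Lam, is a filament protein of the nuclear lamina. Where the untranslated leader of a gene is short, the first codons lie within the reach of promoter-proximal Pol II.

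To show what DNA lies under these peaks, 201 bp around the summit (100 bp on either side) were read from the dm6 assembly (RefSeq) for the strongest member peak with a window wholly in coding sequence, for the strongest of such members with a GAGAG, CAGCAGCAG or CAGCTG match, and for the strongest in a ribosomal protein gene. A peak outside Pol II domains is given for contrast. Each sequence is written 5′ to 3′ on the coding strand of the host, and capitals mark matches to the 4 motifs searched, on either strand, so that CTCTC is GAGAG on the other strand. All of the windows lie in coding exons.
CG1628, chrX:10602339-10602539, minus strand: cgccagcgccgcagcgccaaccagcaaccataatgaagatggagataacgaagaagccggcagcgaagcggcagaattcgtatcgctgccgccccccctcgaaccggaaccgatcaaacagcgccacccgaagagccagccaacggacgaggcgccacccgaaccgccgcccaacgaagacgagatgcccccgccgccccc
amn, chrX:19887019-19887219, minus strand: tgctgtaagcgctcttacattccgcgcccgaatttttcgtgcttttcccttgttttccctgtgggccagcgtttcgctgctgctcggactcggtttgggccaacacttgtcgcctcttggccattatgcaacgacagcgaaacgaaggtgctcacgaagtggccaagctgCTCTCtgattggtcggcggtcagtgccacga
InR, chr3R:21580115-21580315, minus strand: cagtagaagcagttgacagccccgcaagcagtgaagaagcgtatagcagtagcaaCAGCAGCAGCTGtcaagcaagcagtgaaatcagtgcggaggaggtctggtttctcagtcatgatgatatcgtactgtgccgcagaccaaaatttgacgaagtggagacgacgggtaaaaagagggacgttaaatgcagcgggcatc
RpLP0, chr3L:22076523-22076723, plus strand: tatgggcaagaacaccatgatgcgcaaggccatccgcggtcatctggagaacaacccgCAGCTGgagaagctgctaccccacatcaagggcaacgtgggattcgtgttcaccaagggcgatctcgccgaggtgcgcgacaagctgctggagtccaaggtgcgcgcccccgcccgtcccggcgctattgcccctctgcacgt
pnt, chr3R:23292460-23292660, minus strand, a mock-only coding peak outside Pol II domains: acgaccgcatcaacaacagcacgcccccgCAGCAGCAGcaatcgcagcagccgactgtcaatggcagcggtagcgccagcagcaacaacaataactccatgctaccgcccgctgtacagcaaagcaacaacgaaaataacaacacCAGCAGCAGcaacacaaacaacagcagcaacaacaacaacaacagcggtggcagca
The CG1628 window held no match to any of the 4 motifs and was 66.2% G + C. The amn window, in a neuropeptide gene and 2941 bp from its start site, held GAGAG once, on the strand opposite to the one shown. The InR window, in the insulin receptor gene, held CAGCAGCAG and CAGCTG overlapping in a single run. The RpLP0 window, in the gene of a ribosomal stalk protein, held CAGCTG alone. The pnt window held CAGCAGCAG at 2 places.

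The member peaks lay near the 5′ ends of short genes that carried Pol II at their start. The summit was at a median of 319 bp downstream of the nearest upstream start site of the host, with quartiles of 200 and 502 bp and a range of 0 to 37459 bp. Summits lay within 500 bp of that start site in 685 of 915 peaks (74.9%, 95% Wilson interval 72.0 to 77.6%) and within 1000 bp in 847 (92.6%), and only 18 lay more than 5000 bp away. The bin that held most summits was 200 to 300 bp, with 215 peaks, and 30 summits lay within the first 100 bp. The hosts had a median length of 2242 bp and a median 5′ leader of 117 bp, against 3368.5 bp and 193 bp for the 6024 protein-coding genes with a Pol II domain that hosted no member peak. A single coding exon made up the whole coding sequence in 20.1% of the hosts and in 12.5% of those other genes with Pol II. The rule asks for a coding summit and Pol II together, which can itself favour genes with these traits. The contrasts between hosts and other genes were not tested.

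**Figure D1:**
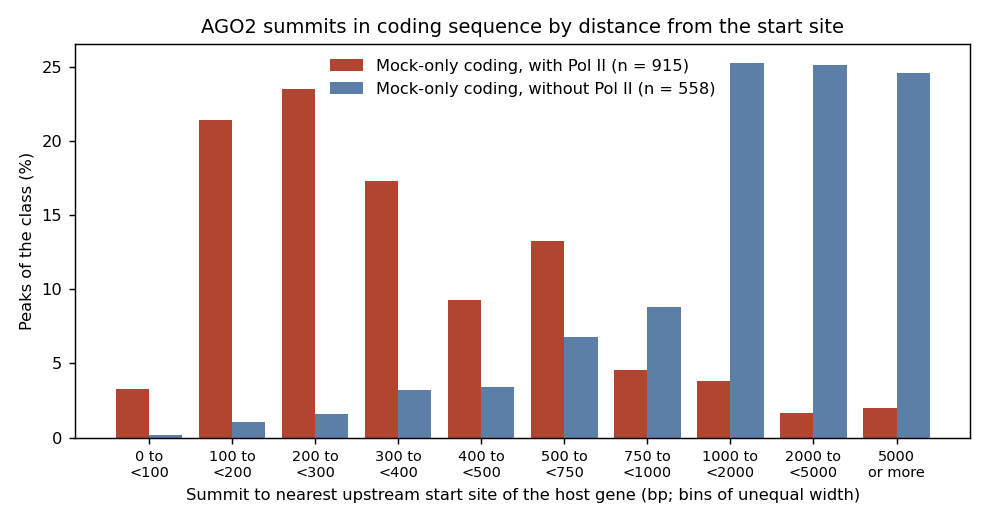
Percentage of peaks (y axis) by distance in bp from the summit to the nearest upstream start site of the host gene (x axis, bins of unequal width), for mock-only coding peaks with Pol II (red, left) and mock-only coding peaks without Pol II (blue, right). In the bin from 200 to 300 bp lay 23.5% of the peaks with Pol II and 1.61% of those without, and from 5000 bp on 1.97% and 24.6%.

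The position near the start site is one that the rule brings with it to a large extent. Coding bases in Pol II domains (1309916 bp) were themselves within 500 bp of a start site in 70.3% of cases, and 63.9% of them belonged to a first coding exon. For the member peaks the shares were 74.9% and 71.7%. Over coding bases outside Pol II domains the shares were 12.4% and 25.6%, and for the 558 mock-only coding peaks outside Pol II domains they were 9.50% and 27.6%. The member shares were above those of the bases, which lay below their Wilson intervals (72.0 to 77.6% and 68.7 to 74.5%), and nearer to them than to the shares outside Pol II domains. These shares of bases were not tested.

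Since the split by Pol II brings this difference with it, the shares against the 558 peaks without Pol II are a description with no test. A start site of any gene lay under 251 of the 915 member peaks (27.4%, 24.6 to 30.4%) and under 16 of the 558 peaks without Pol II (2.87%, 1.77 to 4.61%). The summit fell in the first coding exon in 656 member peaks (71.7%, 68.7 to 74.5%) and in 154 peaks without Pol II (27.6%, 24.1 to 31.5%). Against the 18 retained coding peaks with Pol II, the share with a start site under the peak was 27.4% for the members and 50% (29.0 to 71.0%) for the retained peaks, which did not pass the threshold (Fisher's exact test, two-sided, adjusted p = 0.0841 by Benjamini-Hochberg over 13 tests). The share in the first coding exon was 71.7% for the members and 72.2% (49.1 to 87.5%) for the retained peaks, an interval too wide to tell small differences (Fisher's exact test, adjusted p = 1). These p-values describe the peaks of the lists, which are not replicates of a condition, and neighbouring peaks are not independent.

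Because overlap with Pol II was part of the rule, the geometry within the domains is given as a description. The summit itself lay inside the Pol II domain in 747 member peaks (81.6%), the whole peak did in 237, and less than 50% of the peak did in 313. The overlap had a median of 390 bp and a range of 1 to 1822 bp, and a median of 71.4% of the peak was covered. The overlapped domain also covered a start site of the host in 822 cases (89.8%). The summit lay downstream of the centre of the domain in 718 peaks and upstream in 196, in the direction of transcription of the host. The median offset was 255 bp, with summits outside the domain included. A coding summit has to lie downstream of a start site, so the rule itself favours that side. The 915 peaks occupied 860 Pol II domains, of which 55 held more than 1.

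Peaks at the edge of the rule differed from it by a few base pairs. CG13001 was a member through 1 bp of overlap, and Pus1 (a pseudouridine synthase), p53 (the tumour suppressor), CG8206 and tgo (the partner of bHLH-PAS transcription factors) through 9, 11, 13 and 16 bp. On the other side, the peaks in maf-S (a small Maf protein), stck (the PINCH adaptor of integrin adhesions), CalpC, cact (the IκB protein of the Toll pathway) and eIF5B missed a Pol II domain by 2, 3, 25, 29 and 40 bp. Their −log10 p values ran from 16.3 to 23.6 for the 5 inside and from 16.5 to 28.5 for the 5 outside. Where 50% of the shorter interval had to be shared, 714 peaks met the rule, and with 100 bp around each summit in place of the AGO2 peak 824 did.

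In strength, the member peaks were weak to moderate within the mock list. The median −log10 p of the peak caller was 19.6, with quartiles of 17.3 and 23.5 and a range of 15.4 to 119, and 329 of the 915 (36.0%) belonged to the stronger 50% of the mock list. The median fold enrichment over input was 3.06, between 2.07 and 6.59. The retained coding peaks with Pol II had a median −log10 p of 36.5 and a median fold of 3.96, the mock-only coding peaks without Pol II of 18.1 and 3.07, and the mock-only noncoding peaks with Pol II of 23.2 and 3.19. The lowest −log10 p in the knockdown list was 19.85, and 477 member peaks were below it, so that a peak of the same value would not have been on that list. The other 438 were at or above it. The median width was 648 bp for the members, against 560 bp for the peaks without Pol II and 489.5 bp for the retained ones. These measures go with the rule and were not tested.

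**Figure D2:**
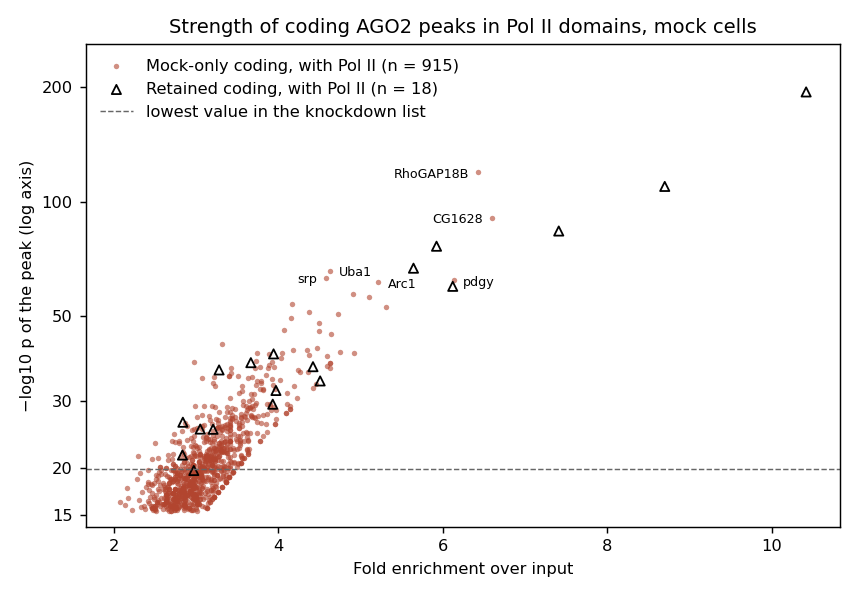
Fold enrichment over input (x axis) and −log10 p of the peak (y axis, log scale) for the 915 mock-only coding peaks with Pol II (red points) and the 18 retained coding peaks with Pol II (triangles), with a dashed line at 19.85, the smallest −log10 p found among knockdown peaks. Of the red points, 477 lie below the line, and 17 of the 18 triangles are in the stronger 50% of the mock list.

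The strongest member peak lay in RhoGAP18B, which encodes a GTPase-activating protein, at chrX:19152993-19154952, with −log10 p of 119 and a fold of 6.42, and ranked 5 in the mock list. Its summit was 103 bp from a start site inside the 30976 bp gene, and the nearest knockdown peak was 124100 bp away. CG1628 had 2 of the 10 strongest, at chrX:10602179-10602726 (−log10 p 90.95, fold 6.59) and chrX:10601048-10601805 (57.39, fold 4.91), each near a start site of its own in a 4569 bp gene. The peak in Uba1, the ubiquitin-activating enzyme, had −log10 p of 65.8 and lay wholly within Pol II. That in srp, the GATA factor of blood cell development, had 63.18 and a fold of 4.58. Those in pdgy, an acyl-CoA synthetase, Arc1, a Gag-like protein of neurons, kel, the kelch protein of ovarian ring canals, hang, a zinc finger protein, and Usp15-31, a deubiquitinase, ran from 52.9 to 62.26.

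The weakest members, in CG11454, Cdc5 (a spliceosome component), Nprl2 (a subunit of the GATOR1 regulator of TOR), Prim2 (a DNA primase subunit) and CG6650, had −log10 p of 15.43 or 15.44. Peaks of this value were the last that the authors' reproducibility threshold let through, as ranks 4193 to 4200 of 4201 show. The widest were in CG17141 (3019 bp), Cyfip (2805 bp, a regulator of the WAVE actin complex), btz (2544 bp, an exon junction complex protein), Non1 (2277 bp, a nucleolar GTPase) and CG33080 (2143 bp). In each of these, Pol II covered less than 50% of the width, with overlaps of 671, 1123, 218, 902 and 823 bp.

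The 915 peaks had 900 host genes, and no summit fell in coding sequence of more than 1 gene. No host had 3 or more member peaks and 15 had 2, which are named here after their values were seen: BEAF-32, CCT6, CG1628, CG2691, CG31211, CG33080, CG4658, CG6340, MED7, RpL4, Uba1, abs, nAChRbeta3, scf and sol. Of the 6924 protein-coding genes with a Pol II domain, 13.0% hosted a member peak, and of all 13968 protein-coding genes 6.44%. The share among genes with Pol II was 18.1% (402 of 2218) for genes under 2 kb and 14.6% from 2 to 5 kb. It was 7.86% from 5 to 20 kb and 3.45% (24 of 695) for genes of 20 kb or more. The share with any mock AGO2 peak rose with length instead, at 27.2%, 36%, 50.1% and 64%, so the fall belongs to peaks that meet the rule. Genes known by a CG number alone made up 29.8% of the hosts and 29.9% of the protein-coding genes with Pol II.

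**Figure D3:**
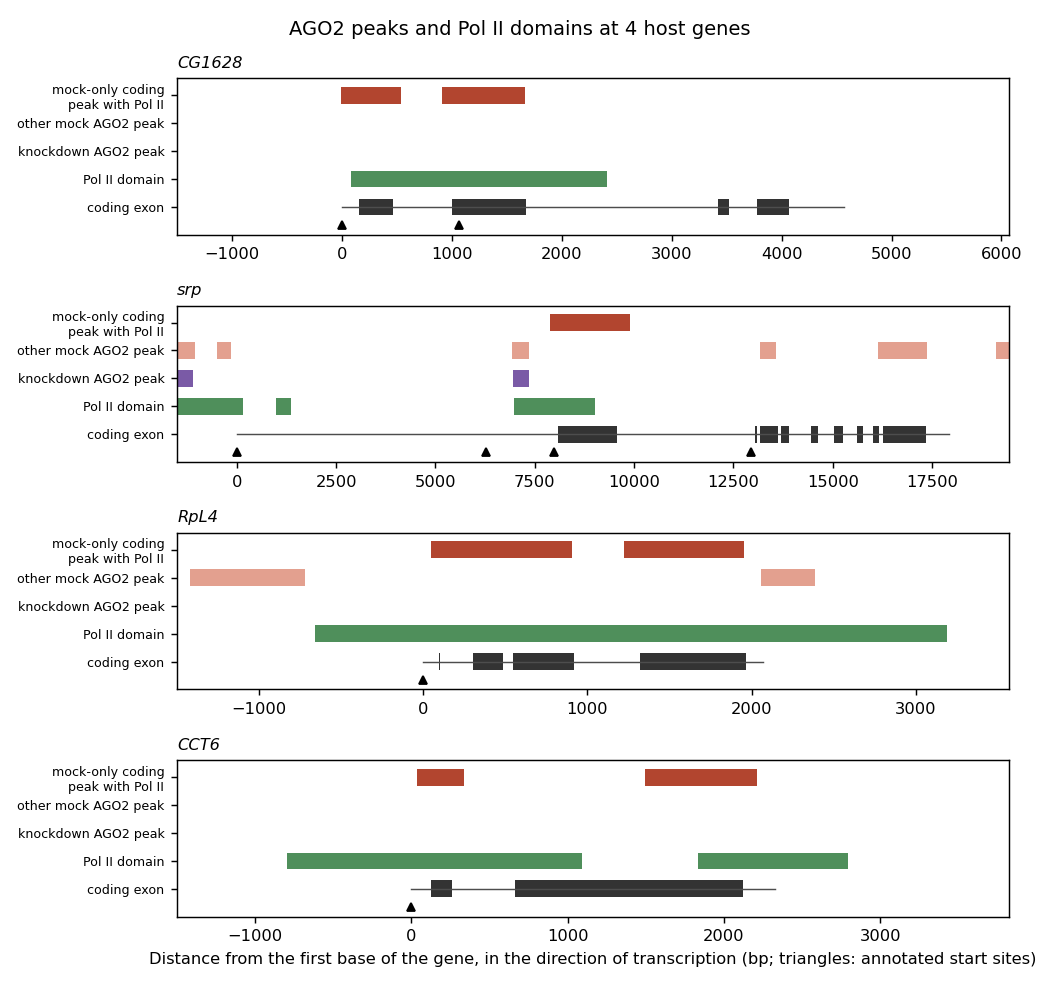
Position of AGO2 peaks, Pol II domains and coding exons at CG1628, srp, RpL4 and CCT6, in bp from the first base of the gene in the direction of transcription (x axis), with annotated start sites as triangles. CG1628, RpL4 and CCT6 each hold 2 mock-only coding peaks with Pol II and no knockdown peak within 1500 bp, whereas srp has a knockdown peak 530 bp from its coding peak.

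The layouts differed between hosts. In CG1628, 1 Pol II domain ran from 83 to 2412 bp, and each of the 2 peaks covered a start site and coding sequence. In RpL4, a Pol II domain ran over the whole 2068 bp gene, and the 2 member peaks (−log10 p 27.05 and 15.63) lay over its 5′ and 3′ coding exons, with further mock peaks beyond both ends. In CCT6 the peaks lay at opposite ends of the gene, each in a Pol II domain of its own (18.66 and 15.92). In srp, the member peak ran from 7879 to 9908 bp, over an internal start site at 7988 bp and the large coding exon from 8074 to 9573 bp. A stronger peak lay next to it, from 6919 to 7346 bp (−log10 p 107), and that one overlapped a knockdown peak with −log10 p of 59.97.

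Genes of protein synthesis and folding stood above the background among the hosts. Of the cytoplasmic ribosomal protein genes with a Pol II domain, 28 of 86 (32.6%) hosted a member peak, against 13.0% of all protein-coding genes with Pol II. They comprised 15 genes named for proteins of the large subunit and its stalk and 13 of the small subunit. RpL24-like and RpLP0-like were included among the 15 by name only. The 29 member peaks in them had −log10 p from 15.63 (the second RpL4 peak) to 38.94 (RpS26), with a median of 19.93, and RpLP0, RpL3 and the first RpL4 peak followed RpS26 with 33.03, 27.31 and 27.05. Their summits lay between 37 bp (RpS9) and 1736 bp (the second RpL4 peak) from the start site. Ribosomal protein genes are short, and among those under 2 kb 24 of 70 hosted a member, where 18.1% of all genes of that length with Pol II did. None of the 93 listed genes overlapped a knockdown AGO2 peak, but knockdown peaks were rare in short genes at large, with 0.361% of the genes under 2 kb with Pol II and 2.35% of those of 2 to 5 kb.

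Of the translation factors with Pol II, 8 of 20 (40%) were hosts. These were eIF1A (−log10 p 28.92), which acts in scanning of the start codon, eIF2alpha (15.97) and eIF2beta (30.43) of the initiator tRNA carrier, eIF3b (22.69) and eIF3d1 (18.23) of the eIF3 complex, the RNA helicase eIF4A (17.56), and the elongation factors eEF1alpha1 (19.84) and eEF2 (18.21). The eEF2 summit was 3700 bp from the start site and the others within 753 bp. Of the heat shock proteins and chaperones, 8 of 24 (33.3%) were hosts. They included 5 subunits of the CCT chaperonin, which folds actin and tubulin, namely CCT1, CCT3, CCT4, CCT6 and CCT7, whose 6 member peaks, 2 of them in CCT6, had −log10 p between 15.92 and 18.66. The others were Hsf, the heat shock transcription factor (28.33), the small heat shock protein gene Hsp26 (16.28) and the Hsp70 relative Hsp68 (20.96, 1613 bp from the start site). The lists were drawn up with results of these data known, so the shares are a description. Translation factors and chaperones were not set against genes of like length. A mock AGO2 peak of any kind lay in 42 of 93 ribosomal protein genes, 13 of 23 translation factors and 12 of 25 chaperones. Over all protein-coding genes that share was 21.1%, so the excess is not particular to member peaks.

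**Figure D4:**
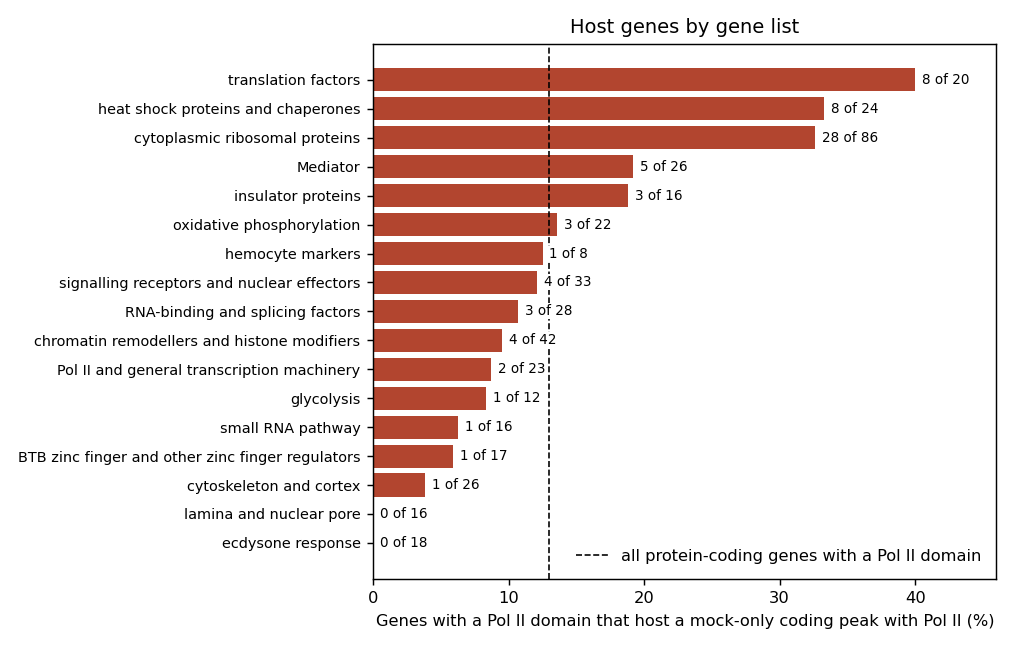
Percentage of genes with a Pol II domain that host a mock-only coding peak with Pol II (x axis) for 17 gene lists (y axis), with the number of hosts printed at each bar and the value over all protein-coding genes with Pol II, 13.0%, as a dashed line. Translation factors, chaperones and ribosomal proteins lie at 32.6% or above, and the ecdysone response and lamina lists at 0.

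Other lists lay near or under the background. Mediator, the coactivator that bridges regulators and Pol II, had 5 hosts of 26 (19.2%), with MED14 the strongest (−log10 p 35.75, summit 207 bp from the start site), followed by MED30, MED28, MED7 and Cdk8. The list drawn up for insulators had 3 of 16 (18.8%), namely BEAF-32, which binds domain borders, ZIPIC and mle, which is a helicase. Oxidative phosphorylation had 3 of 22 (13.6%), with UQCR-C1, COX4 and ATPsyngamma. Signalling genes had 4 of 33 (12.1%), with H (−log10 p 49.52), the Hairless corepressor of Notch targets, InR (46.15), kay, the Fos protein (18.1), and the ETS factor pnt (19.35). The InR summit was 9976 bp from the start site. RNA-binding and splicing factors had 3 of 28 (Hrb98DE, vig, x16), chromatin remodellers and histone modifiers 4 of 42 (Gcn5, Sce, dom, trr), and the Pol II and general transcription machinery 2 of 23 (Taf1, TfIIFalpha). Single hosts were Gapdh2 of 12 glycolysis genes, zuc of 16 small RNA genes, lola of 17 zinc finger genes, cher of 26 cytoskeleton genes and srp of 8 hemocyte markers. The ecdysone response and the lamina lists had no host among 18 and 16 genes with Pol II. A mock AGO2 peak of any kind nevertheless lay in 15 of 19 listed ecdysone genes and in 3 of 16 lamina genes. A knockdown peak lay in 10 and 1 of them. For the zinc finger list these numbers were 18 and 9 of 20. Over all protein-coding genes the shares were 21.1% and 3.57%. These lists were not set against genes of like length.

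The member peaks were mostly the lone AGO2 peak of a gene. Few of their hosts had a knockdown peak, but such peaks were rare in genes at large. A knockdown peak lay in 3.57% of all protein-coding genes and in 6.86% of those with Pol II. Another mock AGO2 peak lay in the host for 144 of 915 member peaks (15.7%, 13.5 to 18.2%), against 303 of 558 peaks without Pol II (54.3%, 50.2 to 58.4%), an odds ratio of 0.157 (Fisher's exact test, adjusted p = 1.47e-53), and against 8 of 18 retained coding peaks with Pol II (44.4%, 24.6 to 66.3%), an odds ratio of 0.234 (adjusted p = 0.00915). A knockdown AGO2 peak lay elsewhere in the host for 28 member peaks (3.06%, 2.13 to 4.39%), against 122 peaks without Pol II (21.9%, 18.6 to 25.5%). The odds ratio was 0.113 (Fisher's exact test, adjusted p = 4.55e-30). The rule bars overlap with a knockdown peak in both classes, and the split by Pol II brings shorter hosts. This p-value therefore describes the lists and cannot separate Pol II from host length.

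Length of the host moved with both measures. The peaks without Pol II had hosts with a median length of 6195 bp, against 2242 bp for the members. In hosts under 2 kb, another mock peak was found for 6.40% of 406 member peaks and 12.7% of 79 peaks without Pol II. In hosts of 2 to 5 kb, it was found for 15.1% of member peaks and 38.9% of those without Pol II. In hosts of 5 to 20 kb the shares were 35.6% and 63.4%, and in hosts of 20 kb or more 70.8% and 79.2%. For a knockdown peak the shares were 0% and 1.27% in hosts under 2 kb and 0.571% and 2.16% in hosts of 2 to 5 kb. They were 11.9% and 17.8% in hosts of 5 to 20 kb. In hosts of 20 kb or more they were 41.7% and 56.4%. Of all protein-coding genes with Pol II, 0.361% under 2 kb and 2.35% from 2 to 5 kb held a knockdown peak. From 5 to 20 kb 11.9% did, and of 20 kb or more 30.6%. With hosts under 5 kb alone, the difference in other mock peaks passed the threshold (10.45% and 29.4%, odds ratio 0.281, adjusted p = 3.35e-10 by Fisher's exact test), and that in knockdown peaks no longer did (0.265% and 1.83%, adjusted p = 0.0501). With summits within 500 bp of the start site alone, the difference in knockdown peaks passed it (1.02% of 685 and 7.55% of 53, odds ratio 0.127, adjusted p = 0.0161 by Fisher's exact test), and that in other mock peaks did not (10.7% and 17.0%, adjusted p = 0.294). Both restrictions were chosen after seeing the data. The 18 retained coding peaks with Pol II also had longer hosts than the members, with a median of 7753.5 bp. Among them another mock peak was found for 5 of 11 in hosts of 5 to 20 kb (45.5%, against 35.6% of member peaks). It was found for 0 of 3 from 2 to 5 kb, 1 of 2 under 2 kb and 2 of 2 of 20 kb or more. The difference from the retained peaks was not tested within lengths.

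**Figure D5:**
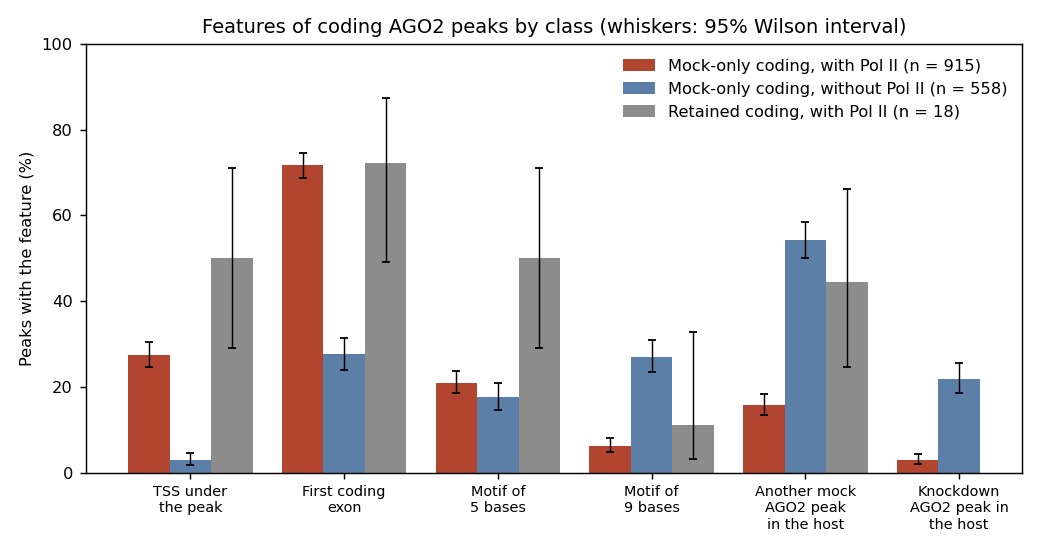
Percentage of peaks with each feature (y axis) for mock-only coding peaks with Pol II (red), mock-only coding peaks without Pol II (blue) and retained coding peaks with Pol II (grey), with 95% Wilson intervals as whiskers. The motif of 5 bases is GAGAG and that of 9 bases CAGCAGCAG, each within 100 bp of the summit, and the retained class is not drawn for the knockdown peak, which its definition contains.

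Distances to the knockdown peaks were measured in each of the mock-only classes compared, with no background of random sites beside them. The nearest knockdown peak was at a median of 56220 bp from a member peak, with quartiles of 21450 and 135910 bp, and lay over 100 kb away for 315 of the 915. It was within 10 kb for 123. The median was 52584 bp for mock-only noncoding peaks with Pol II and 41052 bp for mock-only coding peaks without Pol II. The rule excludes overlap with a knockdown peak, and these distances were not tested. The nearest pairs were at CG9114 (175 bp), Golgin97 (196 bp), kay (249 bp), RhoGAP92B (325 bp) and lace, a subunit of serine palmitoyltransferase (489 bp), and all of these members had −log10 p between 16.5 and 21.3.

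The sequence under the member peaks was set beside that of the other peaks and of coding DNA. GAGAG, the core of the site bound by GAGA factor, was found in 192 of 915 windows (21.0%, 18.5 to 23.7%). It was found in 98 of 558 windows of peaks without Pol II (17.6%, 14.6 to 20.9%), an odds ratio of 1.25 that did not pass the threshold (Fisher's exact test, adjusted p = 0.156), and in 20.9% of 6439 coding windows of the same length tiled over Pol II domains. With the stronger 50% of the mock list alone the shares were 25.2% and 11.8% (odds ratio 2.53, adjusted p = 0.00245 by Fisher's exact test). In the retained coding peaks with Pol II, 9 of 18 windows held it (50%, 29.0 to 71.0%), and the members were lower, with an odds ratio of 0.266 (Fisher's exact test, adjusted p = 0.0123). That call was lost with windows of 50 bp and of 250 bp on either side and with both filters on strength.

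CAGCAGCAG, on either strand, was found in 57 member windows (6.23%, 4.84 to 7.99%), against 151 windows of peaks without Pol II (27.1%, 23.5 to 30.9%), an odds ratio of 0.179 (Fisher's exact test, adjusted p = 1.72e-27). Such repeats often encode runs of glutamine in fly regulatory proteins. The tiled coding windows held it in 3.56% of cases inside Pol II domains and in 4.84% outside, so that the member share stood nearer to its background than the share of the peaks without Pol II did to theirs. Within 500 bp of the start site the shares were 3.94% of 685 and 17.0% of 53 (odds ratio 0.201, adjusted p = 0.00643 by Fisher's exact test), and in hosts under 5 kb 4.37% and 12.8% (odds ratio 0.310, adjusted p = 7.17e-05). The members with the motif included InR, shown above with its sequence. Against the retained peaks, with 2 of 18, no difference passed the threshold (Fisher's exact test, adjusted p = 0.374).

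The other motifs were only described. CAGCTG, an E-box that overlaps CAGCAGCAG where the repeat ends in it, was found in 171 member windows (18.7%), 19.7% of windows of peaks without Pol II and 15.8% of coding windows in Pol II domains. TATCGATA, the site of the promoter factor DREF, was found in 1 member window (0.109%), against 0.249% of coding windows in Pol II domains. The median G + C content of the member windows was 57.7%, against 57.7% for the peaks without Pol II and 53.0% for the retained ones. A match here is a match of letters and no measure of binding.

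The Pol II domains under the member peaks had a median width of 1051 bp. Domains of 2 kb or more were overlapped by 146 member peaks (15.96%, 13.7 to 18.5%), by 3 of the 18 retained coding peaks (16.7%, Fisher's exact test, adjusted p = 1) and by 175 of 1355 mock-only noncoding peaks with Pol II (12.9%, 11.2 to 14.8%), for which the odds ratio of 1.28 did not pass the threshold (Fisher's exact test, adjusted p = 0.0697). With an overlap of 50% required, that comparison passed it, at 18.2% against 13.3% (odds ratio 1.46, adjusted p = 0.00728 by Fisher's exact test). The noncoding peaks lay closer to start sites, at a median of 136 bp from any annotated start site, against 293 bp for the member peaks. The split by coding summit can thus itself favour domains that reach further, and this was not tested.

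The member peaks were spread over the large chromosome arms, with 147 on 2L, 202 on 2R, 141 on 3L, 259 on 3R and 166 on X, and none on 4 or Y. The X chromosome held 18.1% of the members, 16.7% of the coding bases in Pol II domains and 22.0% of all mock AGO2 peaks.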

How the data were processed

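Members, comparison classes and gene lists were chosen with earlier results of these data known. The authors' methods give trimming of reads (cutadapt 1.10), alignment to dm6 (bowtie2 2.2.8), a filter for uniquely placed reads (SAMtools 1.3.1), removal of duplicates (Picard 2.5.0) and AGO2 peak calling on pooled replicates against input (MACS2 2.1.1.20160309). The top of the ranking was kept by an irreproducible discovery rate between pseudoreplicates. Pol II domains were called in broad mode, kept where found in a replicate, and merged (bedtools 2.25.0). The deposited AGO2 lists hold a fold enrichment, a linear ratio over input, and a −log10 p-value per peak from the authors' caller, and the Pol II list holds positions only. The number of peaks kept depends on depth, and reads in near-identical repeats were lost.

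Genes and start sites came from Ensembl 115 (BDGP 6.54, on dm6), a later release than the authors used. Windows reached 100 bp on either side of the summit. Fisher's exact test (two-sided) was used for shares, with p-values Benjamini-Hochberg adjusted over 13 tests (2 of them, start site and first coding exon against peaks without Pol II, follow from the rule and are given as shares only), in Python 3.11.15 (scipy 1.17.1), and the procedure was tested on simulated data. Intervals cover the number of peaks only. Genes were named by rule: the 10 strongest, 5 weakest, 5 widest and 5 of highest fold; the 5 nearest each side of the Pol II criterion; the 5 nearest a knockdown peak; and hosts on the lists. Sequences came from the strongest members outside 2R with a window in coding sequence and in no annotated UTR (350 members), and the ribosomal and pnt examples were chosen after seeing the data. Alternatives varied the overlap, summit, strength, annotation, window and domain width.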

Additional observations from a re-analysis of the deposited data

How the results depend on the processing

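Over the 11 tests reported, 60 of 78 planned recomputations kept the direction and the side of the threshold, as did 6 of 8 added after seeing the data. Leaving out chromosomes 4 and Y is not counted, since no member lies on them. The number of member peaks was 329 with the stronger 50% of the mock list and 438 with mock peaks at or above the smallest knockdown −log10 p. Against peaks without Pol II, the odds ratio for GAGAG was 2.53 and 2.15 under these filters on strength, past the threshold. Under the added restrictions, 2 odds ratios no longer passed it: 0.583 for another mock peak (summits within 500 bp of the start site) and 0.142 for a knockdown peak (hosts under 5 kb).

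Against the 18 retained peaks, the odds ratio for GAGAG lost its call at 0.380 and 0.337 under the filters on strength and at 0.406 and 0.314 with windows of 50 and 250 bp. Odds ratios that changed sides of 1 without passing the threshold were 2.90 for the TSS (TSSs widened by 500 bp), 1.12 and 1.00 for the first coding exon and 1.55 and 1.39 for CAGCAGCAG (both filters on strength), and 1.67, 2.86 and 1.78 for broad Pol II domains (50% overlap, summits, domains of 1 kb). Against noncoding peaks, the odds ratio for broad Pol II domains passed the threshold at 1.46 (50% overlap), 1.33 (summits), 1.45 (knockdown minimum) and 1.26 (1 kb). The cause was not tested.

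No paired analysis was possible because replicates were pooled into 1 list per ChIP, and leaving out a replicate was not run on pooled lists. Depth is unknown, the lists came from separate calls, and 18 retained peaks limit every comparison with them.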
